A study of Mus musculus with 14 samples.

Results

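Cytosolic ribosomal protein genes encode the protein parts of the small (40S) and large (60S) subunits of the ribosome, the machine that translates mRNA. They were taken as the rows of the expression table whose symbol begins with Rpl or Rps and a digit, or with Rplp, or is Rpsa, without the Rps6k kinases and without rows whose name holds a pseudogene, microRNA or small nucleolar RNA. The rule uses symbols and no measured value. It found 82 of the 13180 genes used. Of these, 73 are core ribosomal proteins (31 of the 40S and 42 of the 60S subunit). The other 9 are paralogues (Rpl3l, Rpl7l1, Rpl10l, Rpl22l1, Rpl36al, Rpl39l, Rps4y2 and Rps27l) and 1 namesake, Rps19bp1, whose product binds the deacetylase SIRT1 and is no ribosomal protein. All 82 had at least 1 FPKM (a level scaled to transcript length and to the size of the library) in some library.

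Poly(A) RNA was sequenced once from each of 4 mouse cell populations. Oct4-GFP-ESC are embryonic stem cells with a green fluorescent protein reporter of Oct4, a pluripotency factor encoded by Pou5f1; they were kept in serum and LIF (10 ng/ml), with mitomycin C-treated fibroblasts as feeders. Its brightest cells by reporter signal, taken by sorting, make up Oct4-GFP-H-ESC. After 8 days of neural differentiation in N2B27 medium the same line was sorted again, giving the GFP-negative neural progenitors, NPC(GFP-), and the GFP-positive, differentiation-resistant cells, DR-ESC, which were put back into embryonic stem cell medium. All 4 carry the reporter, and the labels give no LIF dose or feeders for DR-ESC. Since each population has 1 library, none of the differences could be checked against replicates, and neither tests nor errors are printed. Genes are called higher or lower from a log2((FPKM + 1) ratio) of at least 1 in size, that is 2-fold. Series of 4 values without library names follow the order Oct4-GFP-ESC, Oct4-GFP-H-ESC, DR-ESC, NPC(GFP-).

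Every ribosome needs close to equal numbers of its proteins, and their genes, scattered over the genome, are expressed together at high levels in growing cells. Their mRNAs begin with a run of pyrimidines, the terminal oligopyrimidine tract, through which the kinase mTOR and the RNA-binding protein LARP1 control their translation. Embryonic stem cells are known for fast division and an active nucleolus, the site of ribosome assembly, and several ribosomal protein genes have paralogues that are used in testis or muscle.

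RefSeq placed the 82 genes on 19 chromosomes of GRCm38.p6, with 13 on chromosome 7, 8 on chromosome 17 and 4 on the X chromosome. A small nucleolar RNA gene lay inside 27 of them (32.9%), 53 such genes in all, against 2.26% of 11274 protein-coding genes of the table. The RefSeq table of start sites held 64 windows for 55 core members, each of 250 bases before and 50 after a start. In 22 of the 64 windows (34.4%) a run of at least 8 pyrimidines touched the stretch from 5 bases before to 10 after the start, against 11.4% of 11770 windows of other genes of the table and 11.3% of all 32851 windows. The 30 bases around the start (10 before, 20 after, on the strand of the gene) are shown for 5 core members with such a run, for Rpl22, which had none, and for 3 paralogues whose levels are described below. Capitals mark the longest run of C and T that touches that stretch.
Rps18: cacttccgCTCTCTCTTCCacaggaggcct
Rps12: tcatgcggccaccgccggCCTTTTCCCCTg
Rpl28: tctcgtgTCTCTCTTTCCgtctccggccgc
Rpl35: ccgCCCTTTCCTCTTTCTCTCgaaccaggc
Rpl7a: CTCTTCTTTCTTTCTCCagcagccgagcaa
Rpl22: cttctggaatgttccagCTCCCactgacag
Rpl22l1: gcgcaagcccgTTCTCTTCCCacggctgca
Rpl10l: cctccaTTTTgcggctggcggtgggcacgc
Rpl39l: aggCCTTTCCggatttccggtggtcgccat
These windows lie in GRCm38.p6 as follows: Rps18 at chr17:33955646-33955675 on the minus strand, Rps12 at chr10:23787190-23787219 on the minus strand, Rpl28 at chr7:4792955-4792984 on the plus strand, Rpl35 at chr2:39005112-39005141 on the minus strand, Rpl7a at chr2:26910797-26910826 on the plus strand, Rpl22 at chr4:152324426-152324455 on the plus strand, Rpl22l1 at chr3:28805498-28805527 on the plus strand, Rpl10l at chr12:66284382-66284411 on the minus strand, Rpl39l at chr16:10170218-10170247 on the plus strand. Rpl22l1 had a run of 10 pyrimidines beginning at the base after the annotated start, whereas Rpl10l had a run of 4 and Rpl39l a run of 7. The run of Rpl7a is 21 bases long and begins before the bases shown. Annotated starts can be off by some bases, so a window without a run says only that these letters are not in it.

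Motifs were searched on both strands of the 300-base windows. CCGGAA, the core of sites of ETS factors, was found in 32 of the 64 core windows (50%), in 25.6% of the windows of other genes of the table and in 14.9% of all windows. CTTTCC, which can lie within a pyrimidine run, was also found in 32 core windows (50%), against 26.0% and 26.6%. ATGGCGG, a core of YY1 sites, was found in 14.1%, 7.40% and 4.05% of the same sets of windows. TATAAA, the TATA box, was found in 9.38% of core windows, 7.04% of those of other genes and 13.6% of all, and the E-box CACGTG in 7.81%, 9.87% and 7.15%. A match is a description of the letters and not of a bound factor. Core members with a pyrimidine run had ratios close to those with a window and a shorter run. The median log2 ratio of NPC(GFP-) to Oct4-GFP-ESC was -1.71 over 22 members with a run and -1.72 over 33 without, and that of DR-ESC to Oct4-GFP-ESC was -0.97 and -1.004. The widest gap over the 6 pairs of libraries was in DR-ESC against NPC(GFP-), 0.65 with a run and 0.75 without. The median log2 ratio was -1.72 in NPC(GFP-) against Oct4-GFP-ESC both for the 27 core members with a small nucleolar RNA gene inside and for the 46 without.

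The ribosomal protein genes were among the most abundant mRNAs of all 4 populations, and were highest in Oct4-GFP-ESC and lowest in NPC(GFP-). Of the 100 genes with the highest FPKM, 63 were ribosomal protein genes in each of the 3 stem cell libraries and 55 in NPC(GFP-). Together they took 25.7, 21.8, 22.1 and 14.99% of the summed FPKM, so Oct4-GFP-ESC had the largest share and NPC(GFP-) the smallest. A share is unchanged when a whole library is scaled by a constant factor. It can change under a scaling that varies with abundance, and the scaling used is not known. By subunit, the core 40S genes took 11.7, 9.94, 10.4 and 6.99% in the stated order of libraries and the core 60S genes 13.6, 11.5, 11.3 and 7.80%, so both subunits had their lowest share in NPC(GFP-).

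**Figure D1:**
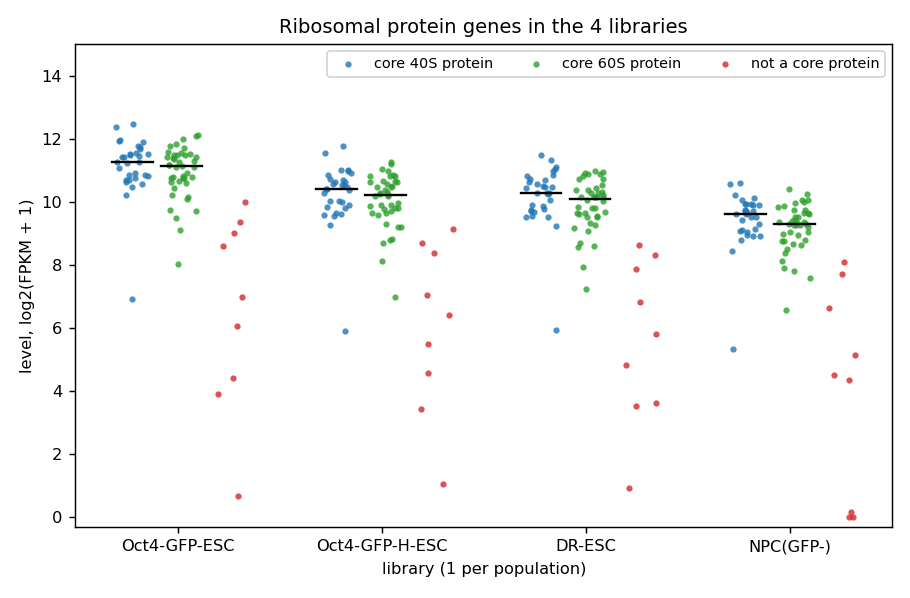
Level of each ribosomal protein gene, as log2(FPKM + 1), in the 4 libraries; each point is a gene, coloured as core 40S, core 60S or not a core protein, and black bars are medians of the core 40S and the core 60S genes. The medians of the core genes are highest in Oct4-GFP-ESC and lowest in NPC(GFP-), where 3 of the 9 other genes lie at or near 0.

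The median core member had 677 FPKM in NPC(GFP-), 1147 in DR-ESC, 1242 in Oct4-GFP-H-ESC, and 2299 FPKM in Oct4-GFP-ESC. On the deposited scale, each of the 73 core members was highest in Oct4-GFP-ESC and lowest in NPC(GFP-). Of the 130 other genes with a mean of at least 300 FPKM, 117 (90%) were highest in Oct4-GFP-ESC and 100 (76.9%) lowest in NPC(GFP-), so most abundant genes shared this order. Over all genes these shares were 44.4% and 40.8%. The summed FPKM was 687303, 437605, 398522 and 345804 in the stated order of libraries, so with equal sums single genes can rank otherwise. The 2 middle libraries were close: 59 core members had more FPKM in Oct4-GFP-H-ESC than in DR-ESC, and 14 had less.

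Levels of the core members differed widely from gene to gene, and in nearly the same way in each library. Rps2, a 40S protein near the mRNA entry site, had 5669, 3465, 2560 and 1509 FPKM and was the highest in the first 2 libraries of that order. Rps28, another 40S protein, had 5302, 2977, 2829 and 1531 FPKM and was the highest in the other 2 libraries. Rpl41, the smallest protein of the 60S subunit, had 4485, 2473, 1953 and 1359 FPKM. The 10 highest members held 24.2, 24.5, 24.3 and 23.4% of the summed FPKM of the 82 genes. Across the 73 core genes, which are not independent replicates and have the same lengths and base composition in every library, Pearson's r of log2(FPKM + 1) lay between 0.973 and 0.996 for the 6 pairs of libraries.

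At the low end, Rps15a, a 40S protein, had 119, 59.5, 60.8 and 39.7 FPKM. Its pseudogenes Rps15a-ps4 and Rps15a-ps6 have rows of their own, with 35.7 and 62.2 FPKM in Oct4-GFP-ESC and 4.40 and 11.6 FPKM in NPC(GFP-). Ribosomal protein genes have many near-identical processed copies, among which reads can be split, so the level of any one member is less certain than that of the group. The next lowest core member was Rpl22, a 60S protein, with 260 FPKM in Oct4-GFP-ESC. Rows that carry merged symbols, among them those of Rpl30, Rpl34 and Rpl13a, fall outside the rule and are not described.

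The identity of the populations was checked with marker genes. Pou5f1 itself had 1881, 1037, 609 and 0.276 FPKM, so the 3 stem cell libraries expressed it and NPC(GFP-) had close to none. Of 4 pluripotency markers the summed FPKM was 2290, 1368, 936 and 104. In NPC(GFP-) Sox2, also used by neural progenitors, made up 103 of it. In the 3 stem cell libraries most of the sum was Pou5f1. Among these 3, Oct4-GFP-ESC was lowest for Nanog (129, 148, 145 and 0.0918 FPKM) and highest for Sox2 and Zfp42. Of 4 neural progenitor markers the summed FPKM was 18.2, 11.6, 40.3 and 343. Against Oct4-GFP-ESC, DR-ESC had more Pax6, Sox1 and Fabp7 but less Nes (11.7, 6.87, 7.92 and 96.9 FPKM). Of 5 fibroblast markers the summed FPKM was 566, 549, 187 and 34.6, most of the DR-ESC value being Fn1 at 184. S100a4 was listed at 0 in DR-ESC and NPC(GFP-). The fibroblast marker sum as deposited thus differs in each comparison below, though little in that of the first 2 libraries. The part of fibroblasts in the ribosomal protein values was not tested. In these bulk samples fewer cells of a type and less RNA per cell cannot be told apart.

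The first comparison sets DR-ESC against Oct4-GFP-ESC, the line they came from. Ribosomal protein genes were lower in DR-ESC, by a median log2 ratio of -1.004 (quartiles -1.13 and -0.93) over 81 members, where all 12260 genes tested had a median of -0.29. Of the members, 42 were lower by at least 2-fold and 0 higher; over all genes 12.2% were lower and 2.95% higher. Because the median sat at the 2-fold size, 43 members lay within 0.1 of it, and the count is a poor measure of this shift. Among core members the level in DR-ESC ran from 40.6 to 67.9% of that in Oct4-GFP-ESC, with a median of 50.1%.

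This difference was close to that of other abundant genes. The 130 other genes with a mean of at least 300 FPKM, a limit chosen after seeing the data, had a median log2 ratio of -0.98, and 49.2% of them were lower by 2-fold. Core members above that limit had a median of -1.004, with 50.7% lower. With the summed FPKM of both libraries made equal, the median of the 81 members was -0.22 and 0 were lower. With the abundance trend of the other genes removed it was -0.06, also with 0 lower. With the median ratio of other genes set to 0 it was -0.59, with 1 lower. Of all 12260 genes, 296, 560 and 431 were lower under these scalings in turn. What set the core members apart was their narrow spread: the quartiles of the ratios of those above the limit were -1.11 and -0.93, against -1.14 and -0.71 for the other abundant genes.

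Within the group, Rpl3, a large 60S protein at the peptidyl transferase centre, kept the highest ratio of the core, with 1013 FPKM in NPC(GFP-), 1863 in DR-ESC, 1786 in Oct4-GFP-H-ESC, and 2743 FPKM in Oct4-GFP-ESC, a log2 ratio of -0.56 for DR-ESC against Oct4-GFP-ESC. Rps15, a 40S protein at the decoding centre, had 2862, 1678, 1693 and 967 FPKM, a ratio of -0.76. Rps19 and Rps10, 40S proteins whose human genes are mutated in Diamond-Blackfan anaemia, had ratios of -0.79 and -0.80. At the other end Rpl24, which forms a bridge between the subunits, had 1565, 799.5, 635 and 489 FPKM, a ratio of -1.30, and Rpl35, at the exit of the peptide tunnel, had 2867, 1454, 1191 and 849 FPKM, a ratio of -1.27. The largest departures were those of paralogues: Rpl22l1 was lower by a log2 ratio of -1.77 and Rpl10l by only -0.38. No member lay 2-fold or more from the median of the members, where 11.6% of all genes lay as far from their own median.

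**Figure D2:**
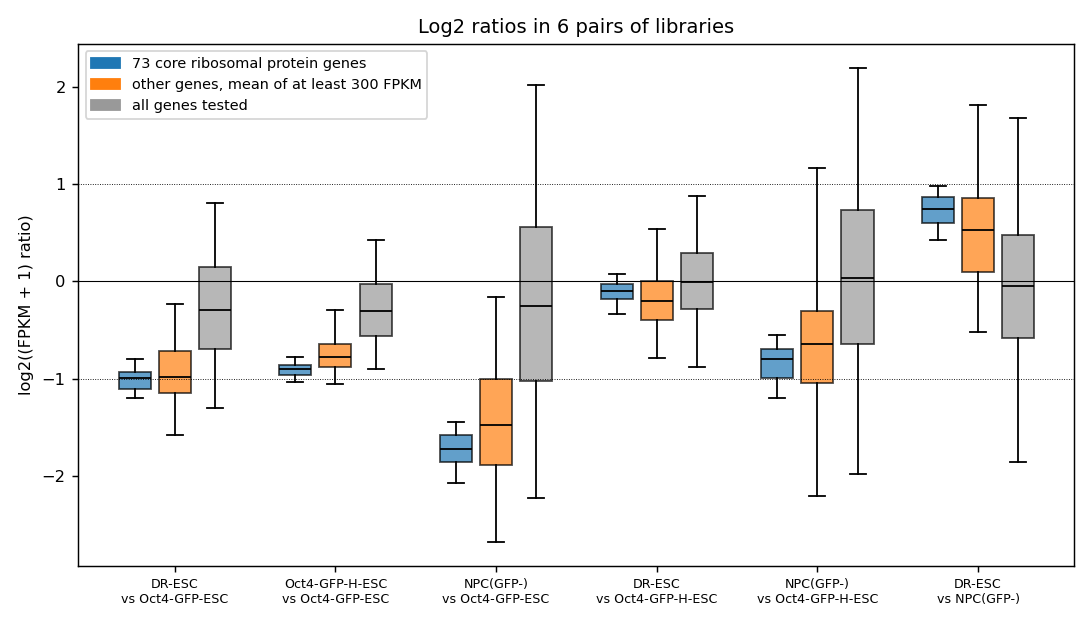
Log2((FPKM + 1) ratio) in 6 pairs of libraries for the 73 core ribosomal protein genes, the other genes with a mean of at least 300 FPKM and all genes tested; boxes are quartiles with the median, whiskers the 5th and 95th percentiles over genes, and dotted lines the 2-fold size. In each pair the box of the ribosomal protein genes is the narrowest, and in DR-ESC against Oct4-GFP-ESC its median (-0.995) is near that of the other abundant genes (-0.98).

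Setting Oct4-GFP-H-ESC beside the Oct4-GFP-ESC they came from asks what sorting on a bright reporter changes relative to the line as cultured. Ribosomal protein genes were lower in the sorted cells by a median log2 ratio of -0.90 (quartiles -0.96 and -0.84), with 12 of 82 lower by 2-fold and 0 higher, against 2.67% lower and 0.983% higher over all 12003 genes, whose median was -0.31. Again 42 members lay within 0.1 of the 2-fold size. Other abundant genes had a median of -0.77 with 6.20% lower, and core members of like abundance a median of -0.90 with 14.1% lower. The standard deviation over the core genes was 0.087 on the log2 scale, so the levels of these genes in the sorted library were close to a constant share, a median of 53.4%, of those in the unsorted one. With equal sums the median was -0.25, and with the abundance trend removed -0.16, and 0 members were lower in either case; 1 was higher with equal sums and 0 with the trend removed. With the median ratio of other genes set to 0 the median was -0.51, with 1 member lower and 1 higher. Of all 12003 genes, 26 were lower and 582 higher with equal sums, and 67 and 214 with the trend removed. With the median ratio set to 0 these counts were 38 and 344. On the deposited scale fibroblast markers, at 566 and 549 FPKM in sum, hardly differed between these 2 libraries. Their share of the summed FPKM was larger in the sorted library, where that sum was 437605 against 687303.

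Rpl22l1 stood lowest here too, with a log2 ratio of -1.56. Rpl10l and Rpl3l were the 2 members above 0, with log2 ratios of 0.66 and 0.41, and both lay 2-fold or more above the median of the members; Rpl3l, the form of striated muscle, had only 0.585 and 1.10 FPKM, so its ratio rests on very low levels. Among all genes 2.62% lay 2-fold or more from their own median. In the core the ratios ran from -1.06 (Rpl22) to -0.62 (Rpl3).

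DR-ESC and Oct4-GFP-H-ESC had nearly the same levels of ribosomal protein genes. The median log2 ratio was -0.11 (quartiles -0.21 and -0.03) over 82 members, 67 of them below 0 and 15 above. By 2-fold, 1 was lower, Rpl10l, and 0 were higher, against 3.91% lower and 3.65% higher over all 12128 genes. Of the members 0 lay 2-fold or more from the member median, where 7.56% of all genes lay as far from theirs. This small shift changed sign with equal sums (0.03) and with the abundance trend removed (0.10). Other abundant genes had a median of -0.21. The spread over core members was nonetheless not nil: Rps2 had a log2 ratio of -0.44 and Rplp0, the base of the ribosomal stalk, -0.37, whereas Rpl22 had 0.28, Rps23, a 40S protein of the decoding centre, 0.17 and Rps12, a 40S protein of the head, 0.15. Rpl7l1, Rpl36al, Rps4y2, Rps27l and Rps19bp1 were among the 7 lowest members, with ratios from -0.64 to -0.41.

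Neural progenitors had less ribosomal protein mRNA than any of the 3 Oct4-expressing populations. Against Oct4-GFP-ESC the median log2 ratio was -1.72 (quartiles -1.89 and -1.58), and all 81 members tested were lower by 2-fold, where 25.6% of 12848 genes were lower and 15.7% higher. Against Oct4-GFP-H-ESC the median was -0.83 (quartiles -1.02 and -0.70), with 23 of 82 lower and 0 higher, where 16.2% of 12864 genes were lower and 18.5% higher and the median of all genes was 0.03. DR-ESC had more than NPC(GFP-) by a median of 0.74 (quartiles 0.59 and 0.87), with 7 of 81 higher and 0 lower, where 11.6% of 12649 genes were higher and 14.2% lower. Core members in NPC(GFP-) had a median of 30.3% of their level in Oct4-GFP-ESC and of 57.6% of that in Oct4-GFP-H-ESC.

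The direction of these 3 comparisons was kept under each scaling tried, as it was in both other comparisons with Oct4-GFP-ESC and not in DR-ESC against Oct4-GFP-H-ESC. With equal sums the median was -0.73 against Oct4-GFP-ESC (9 of 81 lower), -0.49 against Oct4-GFP-H-ESC (5 of 82 lower) and 0.54 for DR-ESC against NPC(GFP-) (5 of 81 higher). With the abundance trend removed the medians were -0.52, -0.33 and 0.51, with 5 lower, 4 lower and 4 higher. With the median ratio of other genes set to 0 they were -1.32, -0.77 and 0.75, with 80 lower, 14 lower and 7 higher. Over all genes, equal sums gave 1313 of 12848 lower, 1575 of 12864 lower and 1185 of 12649 higher. Trend removal gave 2092, 1977 and 1469 of these genes, and the last scaling 1982, 1909 and 1489. The share of members past the 2-fold size was thus near or below that of all genes under equal sums and trend removal. Under the last scaling it was clearly above only against Oct4-GFP-ESC. Other abundant genes lay in the same direction by less: their medians were -1.47 against Oct4-GFP-ESC, -0.64 against Oct4-GFP-H-ESC and 0.53 for DR-ESC against NPC(GFP-), where core members of like abundance had -1.72, -0.80 and 0.75. The shares past the 2-fold size did not all follow: against Oct4-GFP-H-ESC 27.1% of the other abundant genes and 23.9% of the core members were lower, and for DR-ESC against NPC(GFP-) 18.6% and 5.63% were higher.

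**Figure D3:**
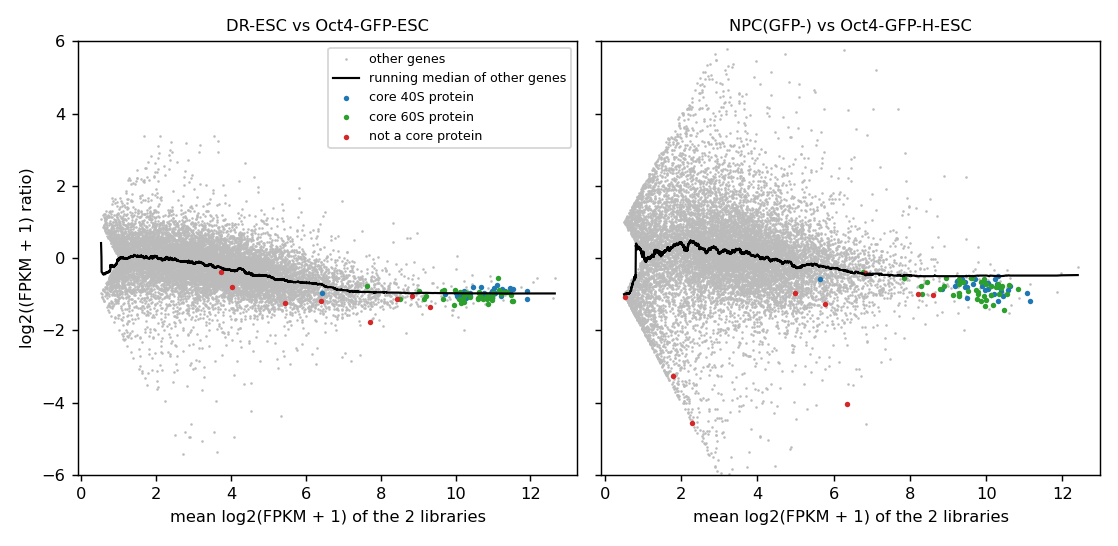
Log2((FPKM + 1) ratio) against mean log2(FPKM + 1) for DR-ESC against Oct4-GFP-ESC (left) and NPC(GFP-) against Oct4-GFP-H-ESC (right); grey points are other genes, coloured points ribosomal protein genes and the line the running median over neighbouring other genes, which rests on fewer genes at the right end; ratios beyond 6 in size are not drawn. Core members lie along the line on the left and mostly below it on the right.

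The stalk of the 60S subunit, which recruits the translation factors, includes Rplp1 and Rpl12, the core members with the lowest ratios in NPC(GFP-) whether set against Oct4-GFP-H-ESC or Oct4-GFP-ESC. Rplp1, one of its acidic proteins, had 854 FPKM in NPC(GFP-), 1916 in DR-ESC, 2327 in Oct4-GFP-H-ESC, and 4358 FPKM in Oct4-GFP-ESC. Its log2 ratio in NPC(GFP-) was -2.35 against Oct4-GFP-ESC and -1.45 against Oct4-GFP-H-ESC, the lowest of the core in both, and its share of the summed FPKM of the 82 genes was 2.47% in Oct4-GFP-ESC and 1.65% in NPC(GFP-). Rpl12, which sits at the stalk base, had 2861, 1580, 1468 and 627 FPKM, with ratios of -2.19 and -1.33. Rplp0 had 2907, 1809, 1397 and 739 FPKM, and Rplp2 had 4096, 2106, 2024 and 1055. All 4 lay below the median of the members in NPC(GFP-), by 0.23 to 0.63 against Oct4-GFP-ESC and by 0.16 to 0.61 against Oct4-GFP-H-ESC, and above it, by 0.18 to 0.49, in DR-ESC against NPC(GFP-). These 3 comparisons share libraries, and the 4 genes were grouped after their values were seen.

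Rps12 lay to the same side as the stalk genes. It had 3774, 1906, 2109 and 836 FPKM, and in DR-ESC against NPC(GFP-) its log2 ratio, 1.33, was the highest of the core. Together with Rpl12, Rplp1 and Rpl36 it made up the 4 core members that were higher by 2-fold in DR-ESC than in NPC(GFP-). Rps27, a zinc-finger 40S protein, had 2775, 1501, 1574 and 1058 FPKM and the highest core ratio in NPC(GFP-) against Oct4-GFP-ESC, -1.39. Against Oct4-GFP-H-ESC the highest core ratio was that of Rpl22, -0.39, followed by Rps27 (-0.50) and Rpl31 (-0.51), a 60S protein at the tunnel exit. Of the 4 members on the X chromosome, Rpl10, Rpl39 and Rps4x lay above the median of the members in both comparisons of NPC(GFP-) with embryonic stem cells and Rpl36a below it.

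Among the members the sharpest differences between populations were in 3 genes outside the core, and they separated the Oct4-expressing cells from the neural progenitors. Rps4y2 (RefSeq symbol Rps4l, chromosome 6, 148354656 to 148355596), which RefSeq annotates as a transcribed pseudogene related to the X-linked gene Rps4x, had 19.2 FPKM in NPC(GFP-), 235 in DR-ESC, 329 in Oct4-GFP-H-ESC, and 513 FPKM in Oct4-GFP-ESC. Rpl39l (chromosome 16, 10170197 to 10174911), a paralogue of Rpl39 known from testis, had 20.4, 9.74, 11.4 and 0.118 FPKM. Rpl10l (chromosome 12, 66283379 to 66284401), a retrocopy of the X-linked Rpl10 needed for meiosis in male germ cells, had 14.1, 22.7 and 10.6 FPKM in the first 3 libraries, with NPC(GFP-) listed at 0. Each of these genes was higher in the 3 embryonic stem cell libraries than in NPC(GFP-). Rpl39l and Rpl10l were still among the lowest members in every library.

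Relative to the parent gene, a measure unchanged by a constant factor per library, the same 3 genes were again lowest in NPC(GFP-). So were Rpl3l, listed at 0 there, and by small margins Rpl7l1 and Rps27l. Rps4y2 stood at 27.6, 31.7, 24.6 and 3.07% of Rps4x. Rpl39l stood at 1.06, 1.02, 1.25 and 0.0180% of Rpl39. Rpl10l stood at 0.803, 2.42 and 1.32% of Rpl10 in the embryonic stem cell libraries. These 3 were the members that lay 2-fold or more from the median of the members in each comparison with NPC(GFP-), where 39.4% of all genes (against Oct4-GFP-ESC), 34.9% (against Oct4-GFP-H-ESC) and 25.7% (DR-ESC against NPC(GFP-)) lay as far from their own median; no core member did. The log2 ratio of NPC(GFP-) to Oct4-GFP-H-ESC was -4.03 for Rps4y2 and -3.26 for Rpl39l, against -0.83 for the median member. Copies of like sequence can exchange reads with their parent genes, so the levels of Rps4y2, Rpl39l and Rpl10l are uncertain.

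**Figure D4:**
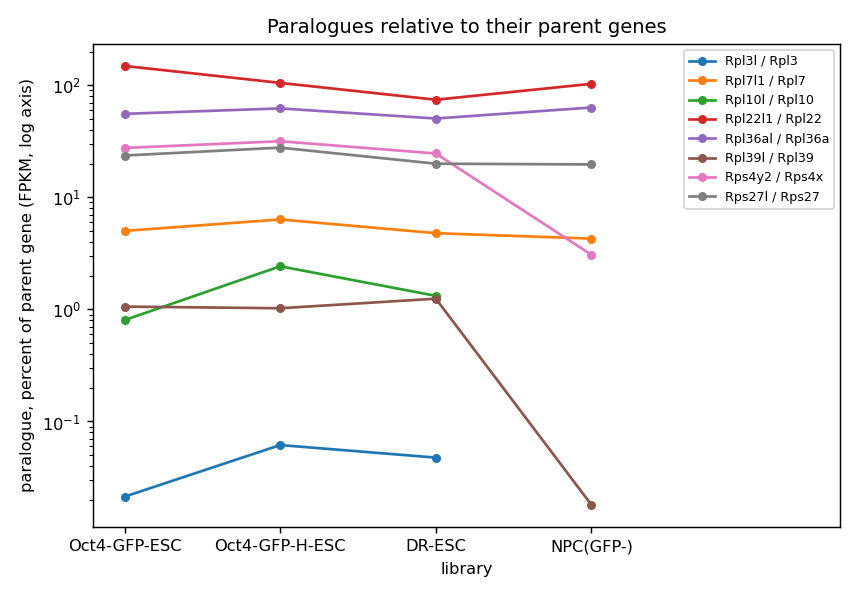
FPKM of each paralogue as a percent of its parent gene in the 4 libraries, on a log axis; lines join the values of a pair, and values listed at 0 (Rpl3l and Rpl10l in NPC(GFP-)) are not drawn. Rps4y2 and Rpl39l are far lower in NPC(GFP-), at 3.07 and 0.0180%, whereas Rps27l, Rpl36al and Rpl7l1 keep similar values in all 4 libraries.

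Rpl22 and Rpl22l1 encode alternative forms of one 60S protein, and the balance between them differed among the stem cell libraries. Rpl22l1 (chromosome 3, 28805508 to 28807424) had 97.7 FPKM in NPC(GFP-), 112 in DR-ESC, 131 in Oct4-GFP-H-ESC, and 386 FPKM in Oct4-GFP-ESC. Rpl22 (chromosome 4, 152324436 to 152334082) had 260, 124, 151 and 94.9 FPKM. The paralogue thus stood at 149, 105, 74.3 and 103% of Rpl22. Only the Oct4-GFP-ESC library was high in Rpl22l1, and only in DR-ESC was Rpl22 the more abundant of the pair by FPKM.

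Of the remaining paralogues, 3 kept within a narrow range of percentages of their parent genes. Rps27l, a paralogue of Rps27 that p53 induces, had 655, 417, 314 and 208 FPKM, 19.7 to 27.8% of Rps27. Rpl36al had 1010, 557, 397 and 272 FPKM, 50.5 to 63.3% of Rpl36a. Rpl7l1 had 126, 83.3, 54.9 and 34.3 FPKM, 4.28 to 6.35% of Rpl7. Rps19bp1 had 66.0, 43.5, 27.5 and 21.7 FPKM, and Rpl3l at most 1.10 FPKM, listed at 0 in NPC(GFP-). Rpl3l stood at 0.0213, 0.0616 and 0.0476% of Rpl3 in the 3 stem cell libraries. All of these were highest in Oct4-GFP-ESC except Rpl3l, and all were lowest in NPC(GFP-).

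Genes that work with the ribosomal proteins were set beside them. Ribosomal subunit proteins with other names followed the core: Fau had 1723, 899, 901 and 613 FPKM, and Gnb2l1 (RACK1) had 1703, 1028, 927 and 497. Of 36 translation elongation and initiation factors, DR-ESC had 19 lower by 2-fold and 0 higher against Oct4-GFP-ESC (median -1.01), where 12.2% of all genes were lower and 2.95% higher. In NPC(GFP-) 8 were lower and 0 higher than in Oct4-GFP-H-ESC (median -0.65), where 16.2% of all genes were lower and 18.5% higher. Eef1a1, the main elongation factor, named after its values were seen, had 7800, 4625, 5298 and 3481 FPKM. Mitochondrial ribosomal protein genes, 75 in the table, had in DR-ESC a median log2 ratio of 0.17 against NPC(GFP-), -0.33 against Oct4-GFP-H-ESC and -1.07 against Oct4-GFP-ESC, where the cytosolic genes had 0.74, -0.11 and -1.004.

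Ribosome assembly factors had medians farther from 0 than the ribosomal proteins in 4 of the 6 comparisons. Of 43 such genes 35 were lower by 2-fold and 0 higher in NPC(GFP-) against Oct4-GFP-H-ESC (median -1.24, against -0.83 for the ribosomal proteins), where 16.2% of all genes were lower and 18.5% higher. In DR-ESC against Oct4-GFP-H-ESC the median was -0.57, against -0.11, with 1 lower and 0 higher, where 3.91% of all genes were lower and 3.65% higher. Against Oct4-GFP-ESC the medians were -1.15 in DR-ESC and -1.84 in NPC(GFP-), beside -1.004 and -1.72 for the ribosomal proteins. The order was the other way in the sorted Oct4-GFP-H-ESC relative to Oct4-GFP-ESC, with -0.61 and -0.90, and in DR-ESC against NPC(GFP-), with 0.68 and 0.74. Bop1, a factor of 60S assembly, had 20.6 FPKM in NPC(GFP-), 32.2 in DR-ESC, 71.8 in Oct4-GFP-H-ESC, and 108 FPKM in Oct4-GFP-ESC. Rrp9, a protein of the U3 small nucleolar ribonucleoprotein, had 150, 93.7, 50.4 and 19.97 FPKM. Of 16 RNA polymerase I and cofactor genes, which serve the synthesis of ribosomal RNA, 8 were lower in NPC(GFP-) than in Oct4-GFP-H-ESC and 0 higher (median -0.98), and 0 differed by 2-fold between DR-ESC and Oct4-GFP-H-ESC (median -0.42). The shares over all genes in these comparisons are those given for the assembly factors, and with so few genes a count of 0 is near the latter. The difference between lists was not tested. These medians are on the deposited scale, and the lists were neither matched for abundance nor compared under the other scalings.

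**Figure D5:**
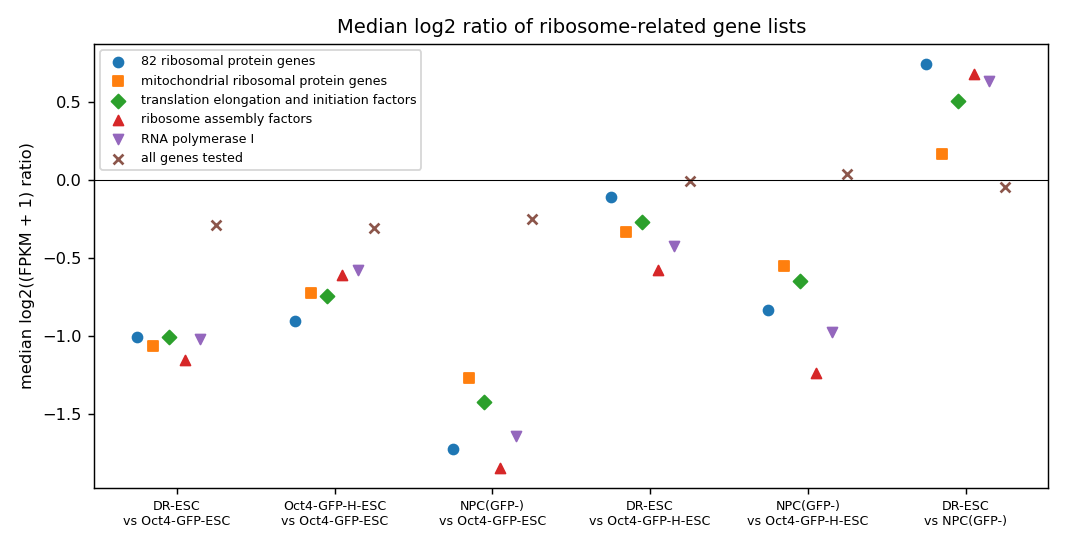
Median log2((FPKM + 1) ratio) of the 82 ribosomal protein genes, of 4 related lists and of all genes tested, in 6 pairs of libraries. Ribosome assembly factors lie below the ribosomal protein genes in DR-ESC against Oct4-GFP-H-ESC (-0.57 and -0.11) and in NPC(GFP-) against Oct4-GFP-H-ESC (-1.24 and -0.83), and above them in Oct4-GFP-H-ESC relative to Oct4-GFP-ESC (-0.61 and -0.90).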

How the data were processed

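Of 14 samples, 4 are poly(A) RNA libraries, 8 are ChIP samples for 4 histone marks and 2 are inputs; only the RNA libraries are analysed here. The table was deposited with 1 column per RNA library; its name speaks of normalised FPKM, and the deposited values are on a log2 scale. Undoing log2 and subtracting 1 gave, for 99.7% of non-zero entries, numbers with at most 6 significant digits (relative tolerance 1e-10), so values were read as log2(FPKM + 1). TopHat2 2.0.9, Bowtie 0.12.8, HTSeq, CASAVA 1.8, DESeq2 and build mm10 are listed, with no role or order, per the submitters' processing notes; no source used here names the program behind the FPKM values or how libraries were scaled. Depth is unknown, so no interval is given, and values of 0 are reported as listed at 0 with no fold.

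Of 13199 rows, 19 whose symbol had become a date were left out. A pair of libraries was compared by log2((FPKM + 1) ratio) for genes reaching 1 FPKM in at least 1 of them, on a scale that understates changes of low genes. Symbols matched RefSeq GRCm38.p6 (the RefSeq form of mm10) for 80 members directly and for 2 by synonym. A start-site window was available for 63 members, and the members on chromosome 18, Rpl17 and Rps14, had none. Named genes were the 8 highest and 8 lowest members, the 5 members farthest above and below the member median in each comparison, non-core members with their parents, and leading genes of other lists; not all are described. Members and lists were chosen with earlier results of these data known. Start-site motifs and the 300 FPKM limit were chosen after seeing the data. Computation used Python 3.11.15, numpy 2.4.6, pandas 2.3.3 and matplotlib 3.10.9, and was tested on simulated data. Alternatives were pseudocounts of 0.1 and 5, an FPKM minimum of 5 or none, sizes of 1.5-fold and 4-fold, core members alone, and 3 scalings: the median ratio set to 0 over other genes reaching 5 FPKM in both, equal sums, and removal of the abundance trend (running median over neighbouring other genes).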

Additional observations from a re-analysis of the deposited data

How the results depend on the processing

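No paired analysis was possible because each population has 1 library. The member median log2 ratio kept its sign and moved by less than 1.5-fold in 40 of 48 alternatives. It moved further with equal sums, to -0.73 in NPC(GFP-), -0.22 in DR-ESC and -0.25 in Oct4-GFP-H-ESC, each against Oct4-GFP-ESC, and with the abundance trend removed, to -0.52, -0.058 and -0.16; the summed FPKM of Oct4-GFP-ESC exceeds those of the other libraries. It changed sign in DR-ESC against Oct4-GFP-H-ESC, to 0.025 with equal sums and 0.10 with the trend removed. Few other genes are as abundant as the members, so the trend rests on fewer genes there. The number of members 2-fold or more from the member median was 0 with core members alone in each comparison. It became 1 in DR-ESC against Oct4-GFP-ESC with no FPKM minimum, 1 with a minimum of 5 for the sorted Oct4-GFP-H-ESC relative to Oct4-GFP-ESC, and 1 with a pseudocount of 5 both in NPC(GFP-) against Oct4-GFP-ESC and in DR-ESC against NPC(GFP-). Shares of the summed FPKM stayed within 1.5-fold in all 8 alternatives. Counts of members past the 2-fold size moved by over 1.5 times in 32 of 120 alternatives: with the median ratio of other genes set to 0, 80 members were lower in NPC(GFP-), 1 in DR-ESC and 1 in Oct4-GFP-H-ESC, each against Oct4-GFP-ESC. Over all genes the same scaling gave 1982 of 12848, 431 of 12260 and 38 of 12003 lower. At a 1.5-fold size 81, 79 and 80 members were lower in these comparisons. The share over all genes was not computed at that size. Scaling moved the median of all genes too: in DR-ESC against Oct4-GFP-ESC from -0.29 to 0.12 with the median ratio set to 0 and to 0.40 with equal sums. Unknown depth limits the values of the lowest members, Rpl3l, Rpl10l and Rpl39l.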

Other observations

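Of 15 regulators of growth and of translation of these mRNAs, 3 were lower by 2-fold and 1, Akt1, higher in NPC(GFP-) against Oct4-GFP-H-ESC, where 16.2% of all genes were lower and 18.5% higher. Myc, a transcription factor that drives ribosome production, had 4.74 FPKM in NPC(GFP-), 5.78 in DR-ESC, 28.4 in Oct4-GFP-H-ESC, and 29.8 FPKM in Oct4-GFP-ESC. Its log2 ratio of DR-ESC to Oct4-GFP-H-ESC was -2.12. Any link between Myc and the ribosomal protein genes was not tested. Series of 4 values follow the order Oct4-GFP-ESC, Oct4-GFP-H-ESC, DR-ESC, NPC(GFP-). Mycn, its relative in embryonic cells, named after its values were seen, had 94.997, 60.4, 31.9 and 33.6 FPKM. Larp1, whose product binds mRNAs with a pyrimidine tract, had 117, 71.2, 67.9 and 34.7 FPKM, and Eif4ebp1, an inhibitor of cap-dependent translation that mTOR switches off, had 483, 260, 190 and 52.5. Akt1, a kinase of growth factor signalling, had 39.3, 24.0, 21.5 and 69.0 FPKM. Of other genes of the list, chosen after their values were seen, Tsc1, an inhibitor of mTOR, had 5.37, 4.6, 8.42 and 9.64 FPKM, Mtor had 19.5, 20.6, 19.7 and 15.8 FPKM and Rptor 13.1, 12.1, 12.3 and 10.98.

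Of 6 noncoding hosts of small nucleolar RNAs, 4 were lower and 1 higher by 2-fold in NPC(GFP-) than in Oct4-GFP-H-ESC, beside the same shares over all genes. Snhg1 had 697, 319.9, 289.9 and 131 FPKM, and Snhg11, the one that was higher, had 6.87, 6.77, 15.2 and 16.6.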
